A study of Mus musculus with 8 samples.

Results

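The collagen chains are the genes that encode the alpha chains of collagens I to XXVIII. They were taken as every listed gene whose symbol is Col, a number, the letter a and a number, with nothing after it. This gave 44 of the 32285 genes, and each of the 44 had at least 1 UMI (a unique molecular identifier, the tag that marks a counted RNA molecule). Their levels were measured in nuclei of adult mouse hearts, in 1 library labelled non-transgenic female (nTg female 1), 2 labelled female and transgenic for Ccna2, which encodes the cell-cycle regulator cyclin A2 (Tg female 1 and Tg female 2), and 2 labelled male and transgenic (Tg male 1 and Tg male 2). The strain, the exact age, any pooling of animals and the promoter and cell type that drive the transgene are not given in the sources used here. Values by library are given first for the library labelled nTg female 1, then for the female libraries Tg 1 and 2, then for the male libraries Tg 1 and 2. A level is a number of UMIs per 1000000 UMIs of the same cell type in the same library (CPM).

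A collagen molecule is a triple helix of alpha chains, and chains of different genes often assemble together. Fibrillar collagens build the fibres that carry tension in the heart wall, and cardiac fibroblasts are known as their main producers. Type IV chains form the sheet of the basement membrane around cardiomyocytes and vessels. Other groups link fibrils to their surroundings, form beaded filaments or networks, or span the cell membrane.

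The libraries held 25045167 to 38593706 UMIs, and 5773 to 8817 nuclei per library were kept, with medians of 2079 to 3053 UMIs. Ccna2 went against the label in the library labelled nTg female 1 (193 CPM over all nuclei) and in that labelled Tg female 1 (0.746 CPM), against 279, 92.2 and 71.4 CPM in the other 3. Xist and 4 Y-linked genes matched the sex label in 5 of 5 libraries. Any pair of libraries shared between 14 and 28 cell barcodes. The library labelled Tg female 2 stood apart. Fibroblast markers in its other types were the highest of all libraries as a percent of their fibroblast level, which was lowest there. The chains of those types are given with that in view. Clusters were named from marker lists that hold no collagen, and collagens were left out of the clustering. This gave 8 cell types with at least 50 nuclei in every library, among them 1938 to 3096 fibroblast nuclei per library. Nothing in the labels says that the libraries of a group came from separate animals, so the p-values measure only the spread between these libraries.

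Of the 44 chains, 31 reached a median of 10 CPM in at least 1 of the 8 types, and 16 of these 31 had their highest median in fibroblasts. The fibrillar group gave 6 such chains of 7 at that level, the beaded filament group 4 of 6 and the fibril-associated group 3 of 4. The basement membrane chains (6 of 6 at that level) and the transmembrane chains (3 of 4) gave 0. The share of all genes with their highest median in fibroblasts was not counted, so these counts have no background. A type was called apart for a chain when its lowest library lay above the highest library of each of the 7 other types. Fibroblasts were apart for 12 of the 25 chains with 10 CPM or more in them, where 4.2% of 10194 genes were apart. These were Col1a1, Col1a2, Col3a1, Col5a1, Col6a1, Col6a2, Col6a3, Col6a6, Col8a1, Col15a1, Col26a1 and Col27a1. Over all 8 types 20 of the 31 chains were apart in a type, where 30.1% of genes were. No test was made between cell types.

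**Figure D1:**
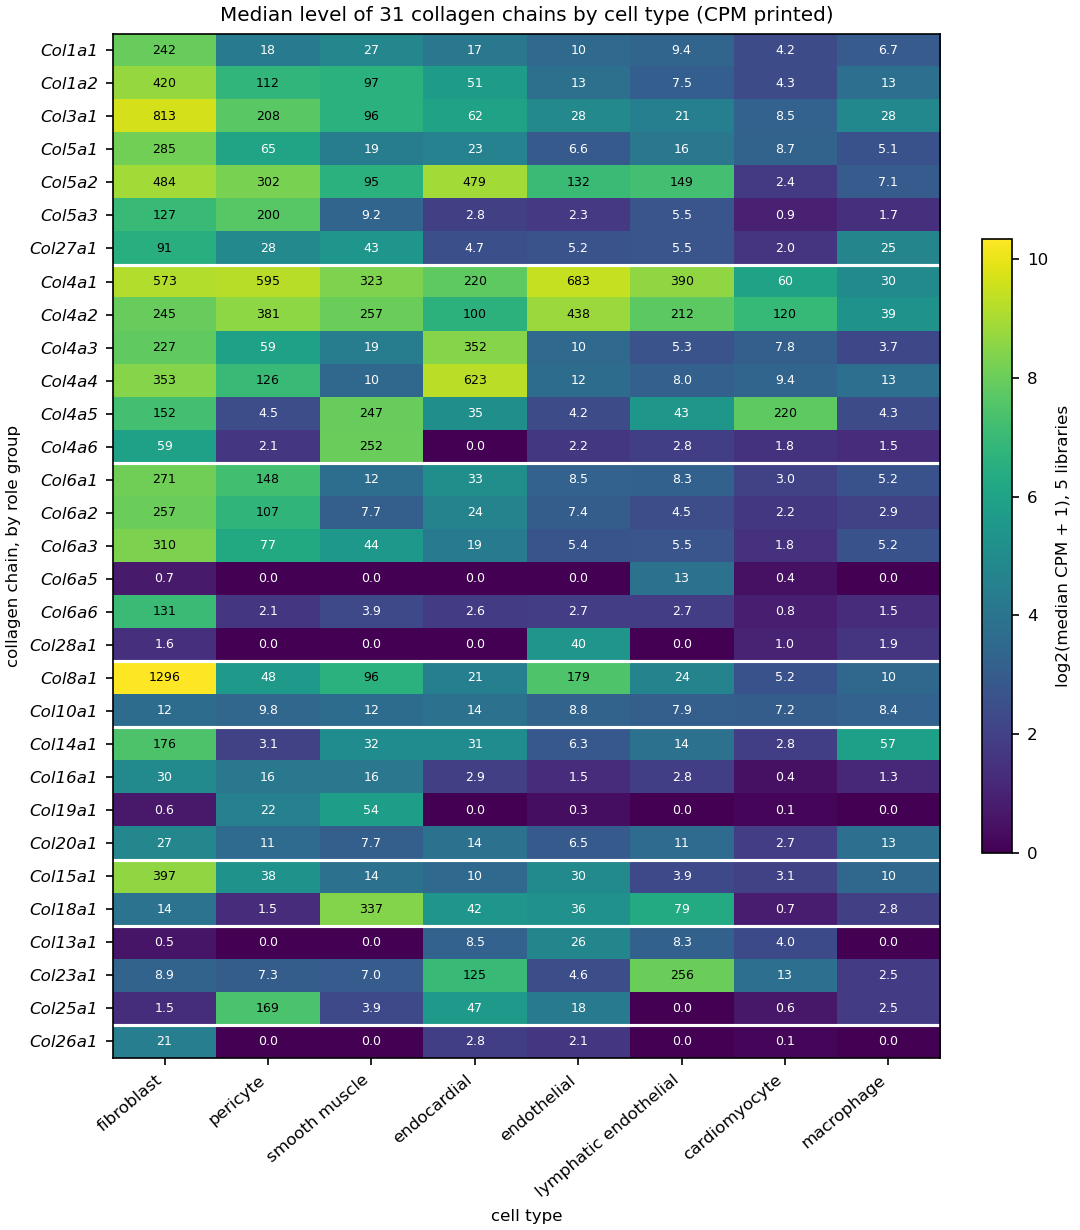
Median level over 5 libraries of the 31 collagen chains with at least 10 CPM in a cell type (rows, white lines between role groups) in 8 cell types (columns); colour is log2(median CPM + 1) and the printed number is the median CPM. Most fibrillar and type VI chains are brightest in the fibroblast column, whereas the type IV chains spread over several columns.

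Summed over the 44 chains, collagen made up 0.718%, 0.856%, 0.682%, 0.748% and 0.648% of the fibroblast UMIs (mean 0.730% ± 0.0797, SD, n = 5). The lowest fibroblast library lay above the highest library of each of the other 7 types. The median share was 0.275% in pericytes, the cells that wrap capillaries, 0.252% in endocardial nuclei, which line the heart chambers, and 0.229% in smooth muscle. It was 0.171% in endothelial nuclei, 0.143% in lymphatic endothelium and 0.0499% in cardiomyocytes. Macrophages had the smallest median, 0.0304%, but 0.105% in the library labelled Tg female 2. Within fibroblasts the fibrillar chains took 0.244% of UMIs (median), the basement membrane chains 0.159%, the hexagonal network chains 0.132% and the beaded filament group 0.101%. These shares are of nuclear RNA, and long genes can yield more UMIs, so they do not rank the proteins.

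**Figure D2:**
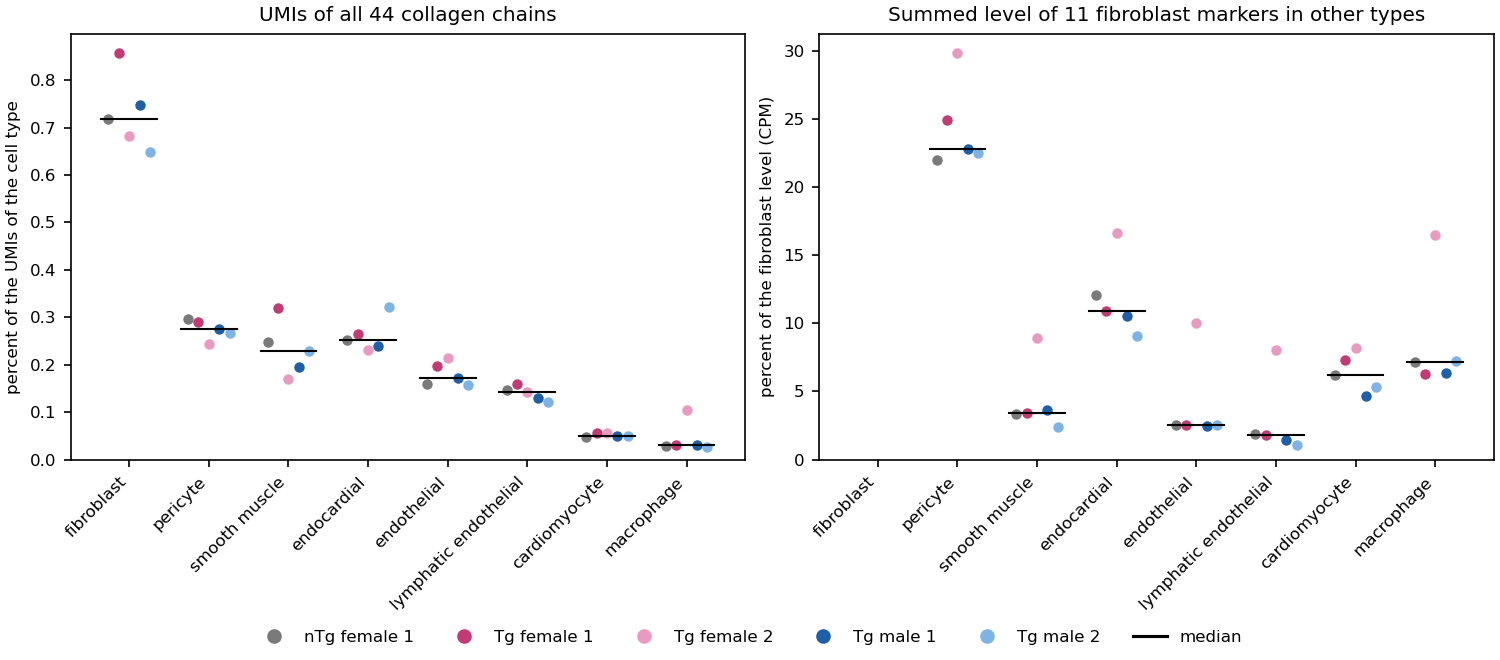
Left, UMIs of all 44 collagen chains as a percent of the UMIs of each cell type; right, the summed level of 11 fibroblast markers as a percent of their fibroblast level. Each point is 1 library and each line the median of 5; fibroblasts lie between 0.648% and 0.856% on the left, and the library labelled Tg female 2 is the highest point for each type on the right.

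The right panel gives the measure set beside low levels outside fibroblasts. The summed level of the 11 fibroblast markers, as a percent of their fibroblast level, had a median of 22.8% in pericytes, 10.9% in endocardial nuclei, 7.14% in macrophages, 6.24% in cardiomyocytes, 3.42% in smooth muscle, 2.53% in endothelial nuclei and 1.77% in lymphatic endothelium. Single markers differed widely: Lama2, a laminin chain, stood at 70.2% in pericytes and Abca9 at 177% in macrophages. Taken marker by marker, the median was 3.87% in pericytes and 2.70% in macrophages. In the library labelled Tg female 2 these medians were 24.5% and 14.1%. The fibroblast level itself was lower there: the 12 listed markers summed to 12200 CPM in its fibroblasts and to 17800 to 18570 in those of the other libraries. Their sum in Tg female 2 was the highest of all libraries in endothelial (1227 CPM), lymphatic endothelial (983.1), macrophage (2016) and smooth muscle nuclei (1093). In pericytes it was the lowest (3626), and in endocardial nuclei (2987) and cardiomyocytes (1001) it was not the highest. The part of fibroblast RNA in the values of other types was not tested.

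Col1a1 and Col1a2 encode the chains of collagen I, the main fibrillar collagen of heart muscle. In fibroblasts Col1a1 stood at 289, 306.4, 242.5, 238.4 and 191.9 CPM, and its next highest type was smooth muscle at a median of 26.66 CPM. Col1a2 stood at 427.5, 504.1, 371.8, 415 and 419.8 CPM in fibroblasts. For the second chain pericytes had a median of 111.6 CPM (104.6 to 116.5) and smooth muscle 96.61. Against their fibroblast levels this put pericytes at 6.94% for Col1a1 and at 25.2% for Col1a2. Fibroblasts held 88.8% of all Col1a1 UMIs and 86.1% of those of Col1a2.

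Col3a1, the chain of collagen III, which mixes with collagen I in fibrils, stood at 1023, 1124, 753.7, 812.6 and 753.8 CPM in fibroblasts and at 147.2 to 295 CPM in pericytes. Col5a1, which with Col5a2 forms the collagen V that starts fibrils, had a fibroblast median of 284.8 CPM and a pericyte median of 65.2. Both chains were apart in fibroblasts. Col5a2 was not: fibroblasts had 542.5, 563.4, 461.2, 484 and 450.3 CPM and endocardial nuclei 543.9, 702.4, 457.4, 450.3 and 479.1. The endocardial libraries covered the fibroblast range, with Tg female 1 above it, while endocardial Col5a1 had a median of 23.3 CPM. Fibroblast markers summed to 10.9% of their fibroblast level in endocardial nuclei, and Col5a2 to 100%.

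Col5a3, the third collagen V chain, was highest in pericytes, at 231.7, 185.2, 155.9, 200.1 and 225 CPM. Fibroblasts lay lower in each library, at 143.6, 126.8, 140.4, 104.1 and 91.5 CPM. The groups did not overlap, and smooth muscle, the next type, had a median of 9.22 CPM. Pericytes were apart for 2 chains (Col5a3 and Col25a1) of the 20 with 10 CPM or more in them, against 3.12% of genes. Col27a1, a fibrillar chain known from cartilage, stood at 77.61, 160.1, 142, 91.21 and 69.88 CPM in fibroblasts against a smooth muscle median of 42.66. The other fibrillar chains stayed under 10 CPM in the 8 types: Col2a1, Col11a1, Col11a2 and Col24a1 had highest medians of 0.161, 4.025, 3.399 and 6.309 CPM.

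The promoters of Col1a2 and Col3a1, a pair whose medians put the 8 types in the same order, are shown as the sequence around the start of a fibroblast-led chain. They are RefSeq sequences of GRCm38.p6, the assembly that mm10 also names, from 250 bases before to 50 after the start of the gene, at chr6:4505368-4505667 (plus strand) and chr1:45311288-45311587 (plus strand). Capitals mark 3 motifs on either strand: the CCAAT box, the GC box with the letters GGGCGG, and the TATA box with the letters TATAAA.
Col1a2: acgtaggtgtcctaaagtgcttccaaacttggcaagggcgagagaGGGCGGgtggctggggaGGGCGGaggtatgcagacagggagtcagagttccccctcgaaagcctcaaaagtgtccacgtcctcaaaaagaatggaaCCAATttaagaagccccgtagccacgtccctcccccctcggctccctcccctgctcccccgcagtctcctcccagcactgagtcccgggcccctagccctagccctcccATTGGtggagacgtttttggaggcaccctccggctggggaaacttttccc
Col3a1: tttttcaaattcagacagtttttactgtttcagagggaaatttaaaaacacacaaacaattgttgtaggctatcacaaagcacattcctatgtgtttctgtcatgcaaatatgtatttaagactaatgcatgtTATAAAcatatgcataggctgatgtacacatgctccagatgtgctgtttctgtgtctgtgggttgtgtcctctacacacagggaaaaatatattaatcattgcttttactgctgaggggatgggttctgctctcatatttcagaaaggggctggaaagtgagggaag
Col1a2 held 2 matches to the CCAAT box and 2 to the GC box, and Col3a1 held 1 to the TATA box and none to the others. Of 32851 promoters of this length, 37.4% held the CCAAT box, 35.7% the GC box and 13.6% the TATA box, and of the 35 chains with an entry 13, 22 and 5 did. A match describes the letters only.

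**Figure D3:**
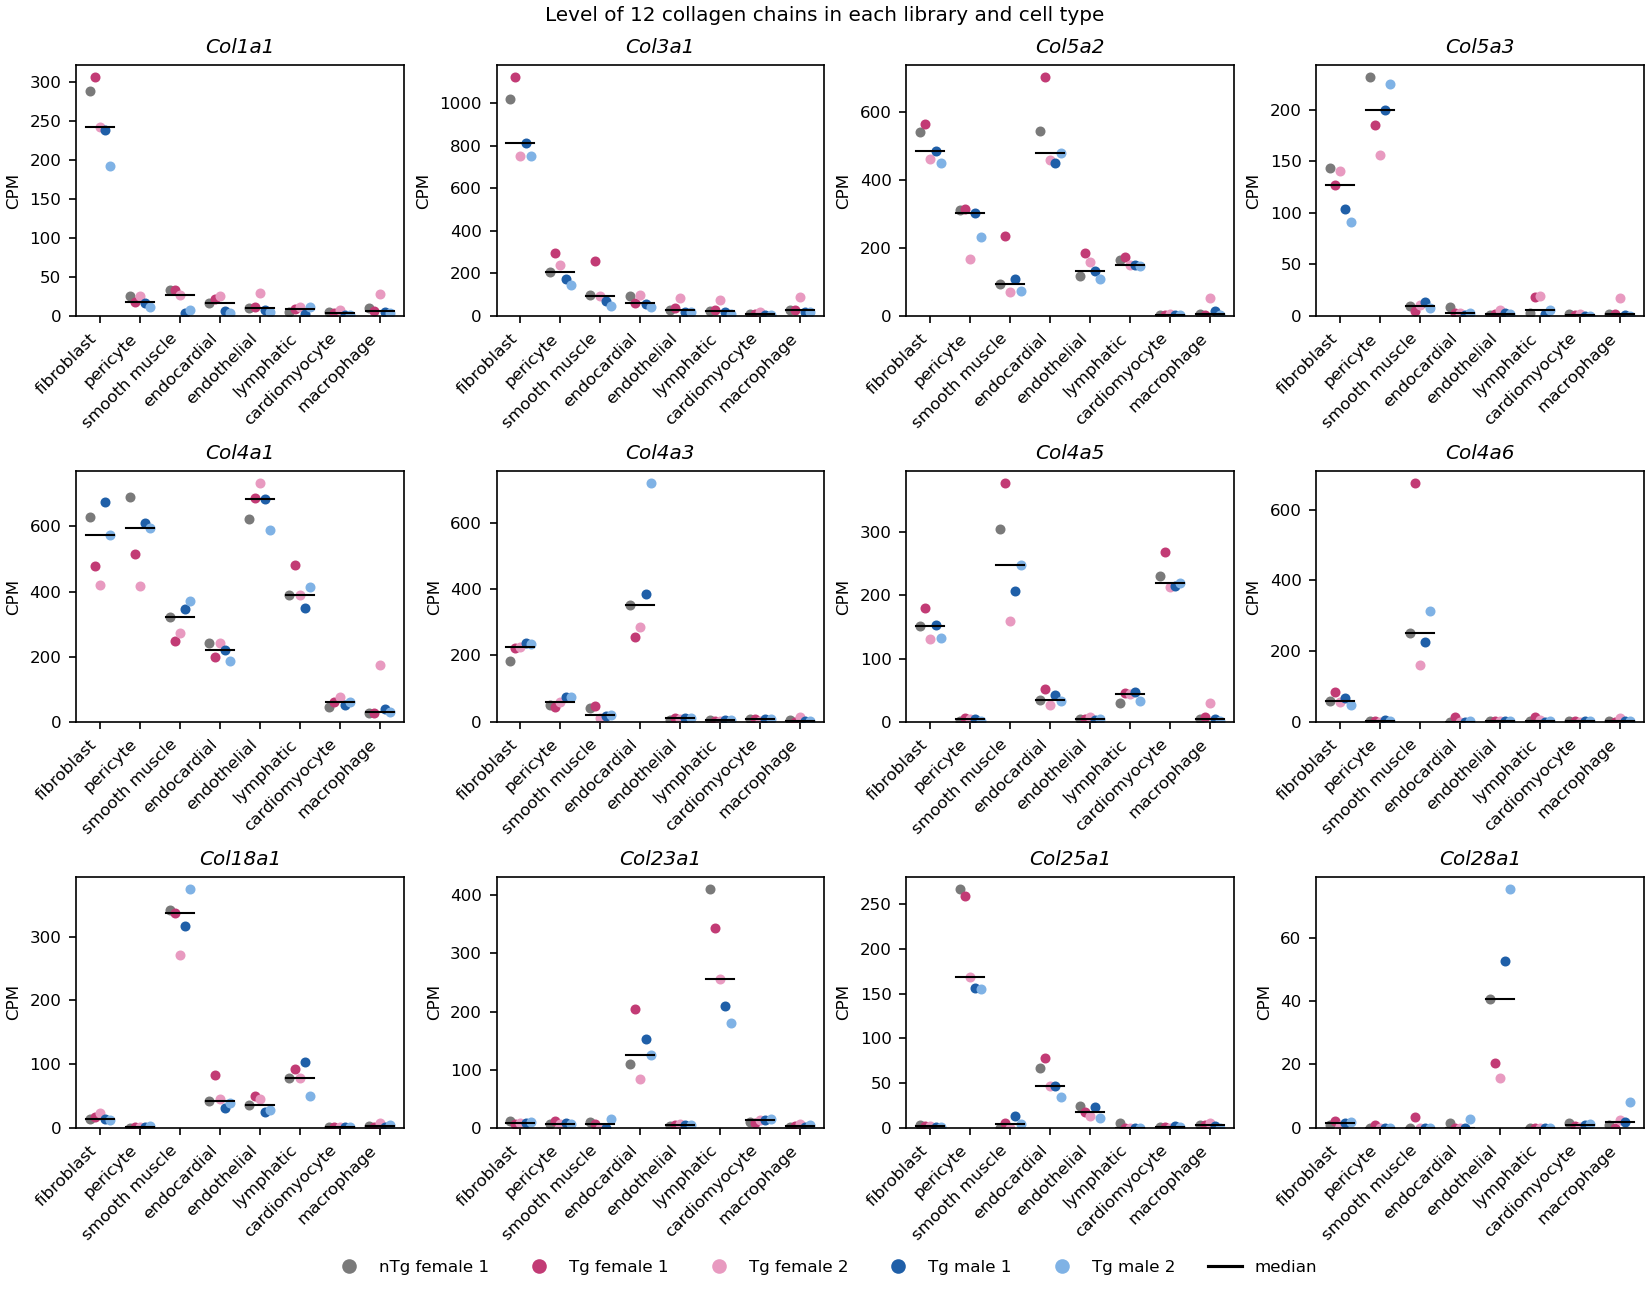
Level (CPM, linear axes from 0) of 12 collagen chains in 8 cell types; each point is 1 library and each line the median of 5. Col1a1 and Col3a1 are highest in fibroblasts, Col5a2 is equally high in endocardial nuclei, and Col5a3 and Col25a1 peak in pericytes, Col4a6 and Col18a1 in smooth muscle and Col28a1 in endothelial nuclei.

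The 6 type IV chains lie in 3 head-to-head pairs in the mouse genome, and 2 members of a pair mostly shared their leading types. Their start sites (GENCODE annotation of GRCm38) lie 21 bases from each other for Col4a1 and Col4a2 on chromosome 8, 72 for Col4a3 and Col4a4 on chromosome 1, and 1309 for Col4a5 and Col4a6 on chromosome X. The RefSeq promoters are shown because each pair is read in opposite directions from neighbouring starts. The regions are chr8:11312777-11313076 (minus strand), chr8:11312555-11312854 (plus), chr1:82586800-82587099 (minus), chrX:141475169-141475468 (plus) and chrX:141474027-141474326 (minus), with capitals as above.
Col4a1: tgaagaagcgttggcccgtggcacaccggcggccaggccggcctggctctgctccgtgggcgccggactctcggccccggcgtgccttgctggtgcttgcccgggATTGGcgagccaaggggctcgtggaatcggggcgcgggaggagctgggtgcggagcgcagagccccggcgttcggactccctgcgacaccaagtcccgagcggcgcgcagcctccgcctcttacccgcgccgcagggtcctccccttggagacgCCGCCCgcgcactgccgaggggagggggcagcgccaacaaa
Col4a2: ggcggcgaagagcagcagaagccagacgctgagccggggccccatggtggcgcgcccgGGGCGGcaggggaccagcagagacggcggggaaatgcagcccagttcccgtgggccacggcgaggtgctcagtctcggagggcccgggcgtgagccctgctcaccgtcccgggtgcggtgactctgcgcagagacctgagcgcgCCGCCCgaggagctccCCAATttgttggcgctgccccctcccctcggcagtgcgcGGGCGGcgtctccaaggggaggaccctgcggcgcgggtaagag
Col4a4: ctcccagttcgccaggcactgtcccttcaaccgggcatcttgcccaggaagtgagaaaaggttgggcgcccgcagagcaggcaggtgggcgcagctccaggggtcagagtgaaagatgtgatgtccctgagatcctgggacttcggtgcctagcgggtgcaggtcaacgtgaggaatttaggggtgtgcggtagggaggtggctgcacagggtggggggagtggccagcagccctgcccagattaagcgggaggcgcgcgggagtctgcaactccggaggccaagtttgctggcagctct
Col4a5: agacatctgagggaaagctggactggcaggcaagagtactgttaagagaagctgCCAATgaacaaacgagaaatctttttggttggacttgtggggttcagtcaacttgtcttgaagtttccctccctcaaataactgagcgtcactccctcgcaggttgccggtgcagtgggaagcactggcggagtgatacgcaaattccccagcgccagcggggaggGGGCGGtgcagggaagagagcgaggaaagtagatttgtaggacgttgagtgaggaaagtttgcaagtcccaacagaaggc
Col4a6: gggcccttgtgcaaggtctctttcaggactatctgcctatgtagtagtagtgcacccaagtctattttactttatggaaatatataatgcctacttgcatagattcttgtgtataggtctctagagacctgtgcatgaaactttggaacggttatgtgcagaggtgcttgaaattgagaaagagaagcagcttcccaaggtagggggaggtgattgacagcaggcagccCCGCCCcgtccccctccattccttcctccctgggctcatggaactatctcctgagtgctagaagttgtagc
Col4a1 held 1 CCAAT box and 1 GC box, Col4a2 held 1 and 3, Col4a5 held 1 and 1, Col4a6 held 0 and 1, and Col4a4 held 0 of the 3 motifs. The windows of Col4a1 and Col4a2 overlap, so some matches are the same bases.

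Col4a1 and Col4a2 encode the chains of the basement membrane found in almost every tissue. Col4a1 stood at 622.6, 686.8, 734.4, 682.8 and 588.2 CPM in endothelial nuclei, with medians of 595.2 in pericytes and 573.4 in fibroblasts. These ranges overlapped, and fibroblasts held 49.2% of all Col4a1 UMIs. Col4a2 followed with 437.9 CPM in endothelial nuclei and 380.7 in pericytes, again with overlap. Cardiomyocytes had a Col4a2 median of 120.1 CPM against 60.48 for Col4a1. Where an endothelial nucleus carried a Col4a1 UMI (nuclei thinned to 1000 UMIs), Col4a2 was found in 41.1% of nuclei (median), against 23.5% of those without, in 5 of 5 libraries higher. Such a rise was not limited to neighbouring genes. Nuclei with a Col15a1 UMI carried Col4a1 in 56.5% against 41.9% in endothelial nuclei and in 45.1% against 36.5% in fibroblasts, each in 5 of 5 libraries higher. Fibroblast nuclei with a Col6a1 UMI carried Col6a2 in 25.4% against 18.4%, again in 5 of 5 libraries higher. In endothelial nuclei only 63 carried Col6a1, too few to show whether Col6a2 rose with it (0% against 0.744%). The annotated genes Col4a1 and Col4a2 overlap by 22 bases on opposite strands. Whether counting used the strand is not given in the sources used here.

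Col4a3 and Col4a4 encode chains that assemble with Col4a5 and are known from the kidney filter. Endocardial nuclei were apart for both, 2 of the 21 chains with 10 CPM or more in them, against 1.76% of genes. Col4a3 stood there at 351.5, 254.4, 284.9, 386.3 and 719.3 CPM, against 183.6 to 237.7 in fibroblasts. Col4a4 stood there at 623.4, 533.5, 514.9, 690.7 and 1185 CPM, against 309.5 to 385 in fibroblasts. Tg male 2 was the highest library for both chains. After fibroblasts came pericytes, with medians of 59.09 CPM for Col4a3 and 126.4 for Col4a4, which are 27.7% and 34.2% of the fibroblast level (medians over libraries). In the other types the medians were 19.32 CPM or less for Col4a3 and 12.88 or less for Col4a4. Endocardial nuclei with a Col4a3 UMI carried Col4a4 in 58.3% of cases against 32.5% without, and fibroblast nuclei in 38.0% against 23.7%, each higher in 5 of 5 libraries.

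Col4a5 and Col4a6 encode chains of a basement membrane known from smooth muscle. Col4a6 stood at 252, 674.7, 160, 224.3 and 313 CPM in smooth muscle, which was apart, with fibroblasts next at a median of 59.25. Col4a5 had its highest median in smooth muscle too, at 247.3 CPM, but overlapped cardiomyocytes, which had 230.6, 268.6, 213.4, 214.3 and 220 CPM. Cardiomyocytes carried almost no Col4a6 (median 1.83 CPM), so the pair parted there. No chain was apart in cardiomyocytes, 0 of the 4 with 10 CPM or more, where 13.3% of genes were.

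Col6a1, Col6a2 and Col6a3 form the beaded filaments of collagen VI around cells. Their fibroblast medians were 270.9, 257 and 310.3 CPM, with pericytes next at 147.5, 107.3 and 77.09. Pericytes thus stood at 52.9% of the fibroblast level for Col6a1 and at 25.4% for Col6a3. Col6a6, a chain related to Col6a3, stood at 124.6, 131.3, 67.99, 231.3 and 182.2 CPM in fibroblasts. Its second type, smooth muscle, had a median of 3.87 CPM, a ratio of medians of 34.0. Fibroblasts held 93.95% of its UMIs. Col6a5 reached 13.34 CPM in lymphatic endothelium, at 13.34, 0, 3.932, 36.06 and 22.16 CPM by library, and Col6a4 and the anchoring fibril chain Col7a1 had highest medians of 0.161 and 2.51 CPM in the 8 types.

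Col28a1, a collagen known from peripheral nerves, was apart in endothelial nuclei. It was the only chain apart there of 14 with 10 CPM or more, against 4.01% of genes. Its endothelial level was 40.49, 20.56, 15.72, 52.54 and 75.36 CPM, and the second type, macrophages, had a median of 1.93. The spread between libraries followed the sex comparison given below.

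Col8a1 encodes a network-forming chain known from vessel walls. In fibroblasts it stood at 1077, 1782, 1177, 1492 and 1296 CPM. Endothelial nuclei followed with a median of 179.4 CPM. Taken library by library, their level was 15.1% of that in fibroblasts (median, 10.2% to 22.6%), against 2.53% for the summed fibroblast markers. After thinning to 1000 UMIs, 50% of fibroblast nuclei (median) had a Col8a1 UMI, 9.98% of endothelial nuclei and 0.447% of cardiomyocyte nuclei. Col8a1 and Col3a1 (48.1%) were the most often detected chains among 18 found in at least 10% of fibroblast nuclei. Its partner chain Col8a2 had a highest median of 3.39 CPM. Col10a1, known from growth plate cartilage, stayed between medians of 7.186 and 13.65 CPM in all 8 types. It overlaps Nt5dc1 on the opposite strand, and the same limit on strand holds as for Col4a1 and Col4a2.

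Among the fibril-associated chains, Col14a1, which sits on the surface of fibrils, was highest in fibroblasts at 176.3, 385.6, 319.7, 113.2 and 65.36 CPM. Macrophages came next, at 56.88, 76.73, 75.1, 56.69 and 48.65 CPM, and the ranges overlapped. Macrophages had a Col14a1 UMI in 5.33% of thinned nuclei against 1.29% for Col1a2 and 2.08% for Col3a1, which are more abundant in fibroblasts. Against the fibroblast level macrophage Col14a1 was 32.3% (19.9% to 74.4%), where the summed fibroblast markers were 7.14%. Col16a1 had a median of 30 CPM in fibroblasts and overlapped smooth muscle, whose highest library reached 33.8. Col20a1 had 26.73 CPM in fibroblasts and overlapped endocardial nuclei. Col19a1, known from smooth and skeletal muscle differentiation, was apart in smooth muscle at 30.73, 64.34, 37.33, 54.39 and 92.75 CPM against 6.31 to 26.26 in pericytes. Col9a1, Col9a2, Col9a3, Col12a1 and Col22a1 stayed under 10 CPM in the 8 types, with highest medians of 0.0761, 1.08, 2.58, 7.21 and 0.827 CPM.

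Col15a1 and Col18a1 are the multiplexins, the second of which yields the fragment endostatin. Col15a1 was apart in fibroblasts, at 353.7, 571.8, 546, 396.9 and 325.4 CPM, with a pericyte median of 37.62. Col18a1 was apart in smooth muscle, at 341.1, 337.4, 272, 316.1 and 374.9 CPM, with lymphatic endothelium next at 78.65 and fibroblasts at 14.5. The related genes were thus led by different types. Smooth muscle was apart for 3 chains (Col4a6, Col18a1 and Col19a1) of 21, against 3.13% of genes. Col18a1 overlaps Slc19a1 on the opposite strand, and the same limit on strand holds.

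The transmembrane chains were low in fibroblasts. Col25a1, known from developing motor innervation, stood at 267.1, 258.9, 169.1, 156.5 and 155.6 CPM in pericytes, with endocardial nuclei next at 34.95 to 77.84. Col23a1 stood at 410.9, 342.9, 255.6, 209.6 and 180.1 CPM in lymphatic endothelium and at 110.2, 204.1, 83.64, 153.3 and 125.2 in endocardial nuclei. Lymphatic nuclei lay above endocardial nuclei in each library, but the ranges overlapped. Col13a1 had 26.01 CPM in endothelial nuclei (13.81 to 35.3) and overlapped lymphatic endothelium, and Col17a1 reached 3.92. Lymphatic endothelium was apart for 0 of 12 chains and macrophages for 0 of 10, against 3.02% and 11.5% of genes. Col26a1, in no other group, was apart in fibroblasts at 19.48, 32.49, 20.72, 23.99 and 17.76 CPM.

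Fibroblast nuclei were divided into 4 subclusters with at least 50 nuclei per library, without the collagens. They are called by their leading genes because none met the naming rule: subcluster 0 (C3, Myoc), 1 (Nkain2, Adra1a), 2 (Kcnip1, Necab1) and 3 (Postn, Ltbp2, Cilp, Meox1). Postn and Meox1 are known from activated fibroblasts. Col4a3 was the 1 chain apart, of 27 with 10 CPM or more in a subcluster, against 2.67% of 10919 genes. It stood at 326.2, 287, 344, 335.5 and 371.9 CPM in subcluster 3, and the highest library elsewhere was 241.3, in subcluster 2. Subcluster 3 was apart for 2.03% of genes. Subclusters 0, 1 and 2 were apart for 0 chains and for 0.0397%, 0.638% and 0.169% of genes. Of the subtype marker lists, 3 had their highest summed median in subcluster 3 (adventitial-like 3456 CPM, activated-like 724.3 and valve- or tendon-like 220.8), so it was given no name.

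A looser order was read after these values had been seen: a chain whose highest subcluster was the same in each of the 5 libraries. Subcluster 3 was the highest for 11 of the 27 chains (Col1a1, Col1a2, Col4a3, Col4a4, Col4a5, Col4a6, Col5a1, Col5a2, Col14a1, Col15a1 and Col16a1), against 7.78% of genes. Subcluster 2 was highest for Col4a1, Col5a3, Col6a3 and Col26a1 (4 of 27, against 1.95%), subcluster 1 for Col6a6 (1 of 27, against 3.7%) and subcluster 0 for 0 (against 0.733%). In all 16 of 27 chains had such a subcluster, against 14.2% of genes. The highest median was 1.32 times the second for Col1a1, 1.03 times for Col1a2 and 2.05 times for Col4a6. The type IV chains divided by pair, with Col4a3 to Col4a6 highest in subcluster 3 and Col4a1 and Col4a2 with their highest medians in subcluster 2.

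Col6a6 ran the other way. In subcluster 1 it stood at 184.3, 256, 140.1, 354 and 330.2 CPM, and in subcluster 3 at 28.16, 45.78, 16.26, 43.56 and 23.37. It was lowest in subcluster 3 in each library, the 1 chain of 27 that was, against 4.49% of genes. The lowest subcluster was also the same in each library for Col4a2, Col8a1 and Col27a1 (subcluster 0, against 0.733% of genes), for Col5a1, Col6a2 and Col15a1 (subcluster 1, 3.67%) and for Col1a2, Col3a1 and Col14a1 (subcluster 2, 1.67%). Col5a3 stood at 192, 195.3, 190.5, 146.5 and 132.7 CPM in subcluster 2 against 89.33, 95.09, 102.7, 74.21 and 61.99 in subcluster 3. Col12a1, which coats fibrils under tension and stayed low in the class as a whole, had a median of 21.72 CPM in subcluster 3 and 6.09 or less in the others. It was highest in subcluster 3 in 4 of 5 libraries, Tg male 2 being the exception. With other groupings the same one was highest in every library for 20 of 26 chains at resolution 0.3 (2 subclusters, 27.7% of genes), 12 of 27 with collagens kept (10.5%) and 15 of 27 for the first-round clusters (12.2%). In the last 2 groupings Col1a2 and Col5a1 dropped out, Col8a1 joined the type IV chains Col4a3 to Col4a6, and Col14a1 was highest in another cluster than these. With collagens kept, Col4a1, Col5a3, Col6a3 and Col26a1, the chains highest in subcluster 2 above, also dropped out, and Col27a1 came in. Those chains of subcluster 2 shared a highest cluster at resolution 0.3 and among the first-round clusters.

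**Figure D4:**
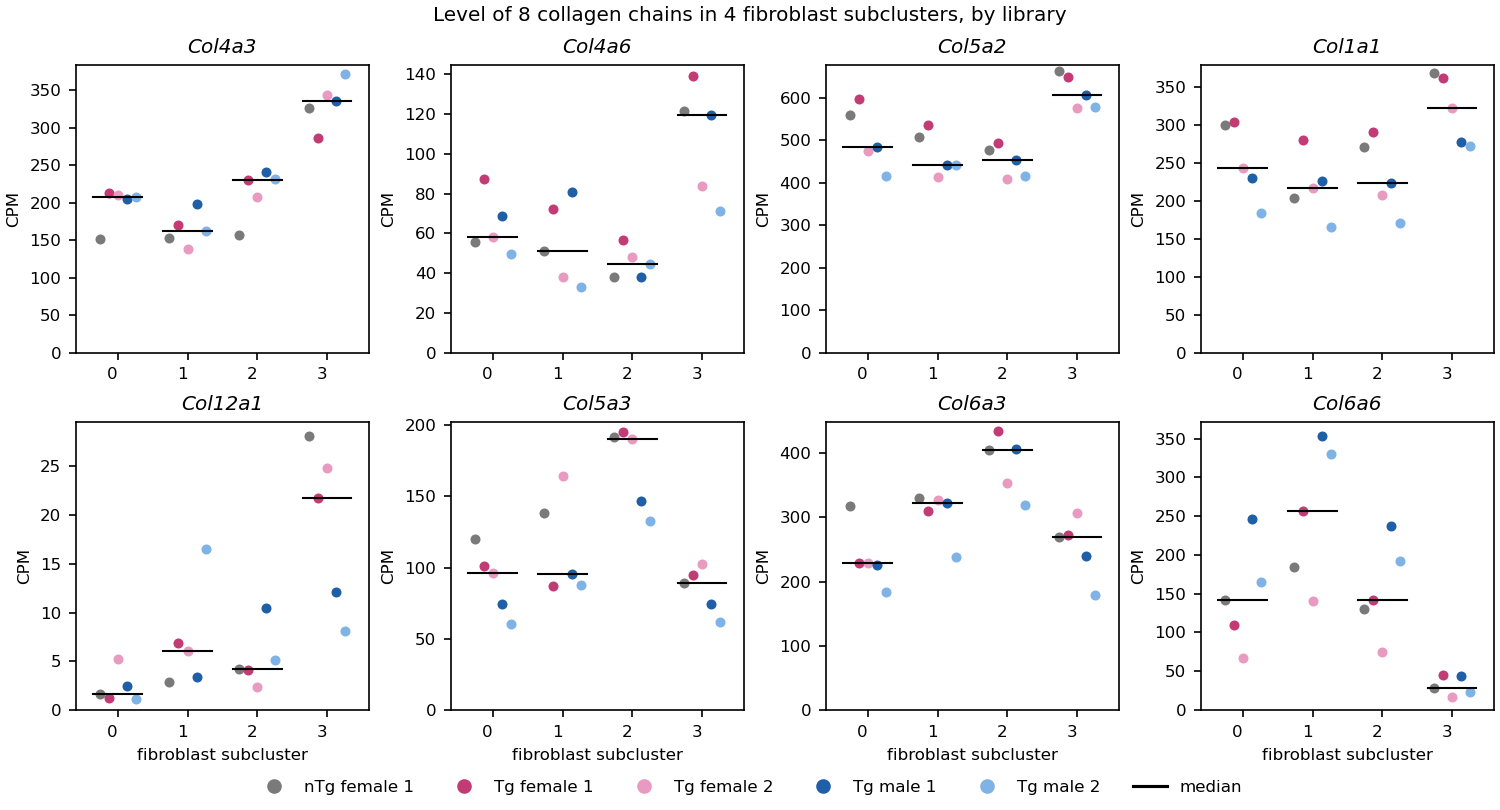
Level (CPM, linear axes from 0) of 8 collagen chains in 4 fibroblast subclusters, numbered by their leading genes as in the text; each point is 1 library and each line the median of 5. Col4a3 in subcluster 3 lies above 241.3 CPM in all 5 libraries, while Col6a6 there stays under 45.8 CPM.

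Sex was compared in the 4 libraries labelled Tg with edgeR's quasi-likelihood test over all genes, adjusted by Benjamini and Hochberg (BH). Ccna2 was near 0 in 1 of the 2 female libraries, so sex and transgene level are partly entangled. In fibroblasts 1 of 35 chains tested was called, Col14a1, where 0.453% of 15231 genes were called. Col14a1 (ENSMUSG00000022371, chr15:55307644-55520803) stood at 385.6 and 319.7 CPM in the female and at 113.2 and 65.36 in the male libraries. The difference was 1.90 on the log2 scale (SE 0.27, edgeR adjusted p 0.0360), higher in 2 of 2 female libraries. The library labelled nTg female 1 had 176.3 CPM and lay between the sexes. The annotation places 3 genes on its opposite strand (1700040F17Rik, Gm18787 and Gm49257), and the strand limit given for type IV holds here too.

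The order was the same in each subcluster. The subclusters divide the nuclei in which Col14a1 was called, so their values are not a separate test. Col14a1 in subcluster 3 was 588 and 484 CPM in the female and 234 and 146 in the male libraries. In subcluster 2, where it was lowest, it was 188 and 166 against 51.2 and 28.4. In other types the female libraries were higher but Col14a1 was not called: the log2 difference was 1.28 in endothelial nuclei (edgeR adjusted p 0.287), 0.51 in macrophages (0.782) and 0.41 in endocardial nuclei (0.907). Whether the difference was larger in fibroblasts than in these types was not tested.

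In endothelial nuclei 1 of 28 chains was called, Col28a1, against 0.131% of 13018 genes. Col28a1 (ENSMUSG00000068794, chr6:7997100-8193709) stood at 20.56 and 15.72 CPM in the female and at 52.54 and 75.36 in the male libraries. The difference was −1.86 on the log2 scale (SE 0.25, edgeR adjusted p 0.0431), lower in 2 of 2 female libraries. The library labelled nTg female 1, at 40.49 CPM, again lay between the sexes. Without scaling factors the adjusted p was 0.0612, and the call was lost. With all 5 libraries and no genotype term, Col14a1 (log2 1.65, edgeR adjusted p 0.307) and Col28a1 (−1.33, 0.761) were both lost.

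**Figure D5:**
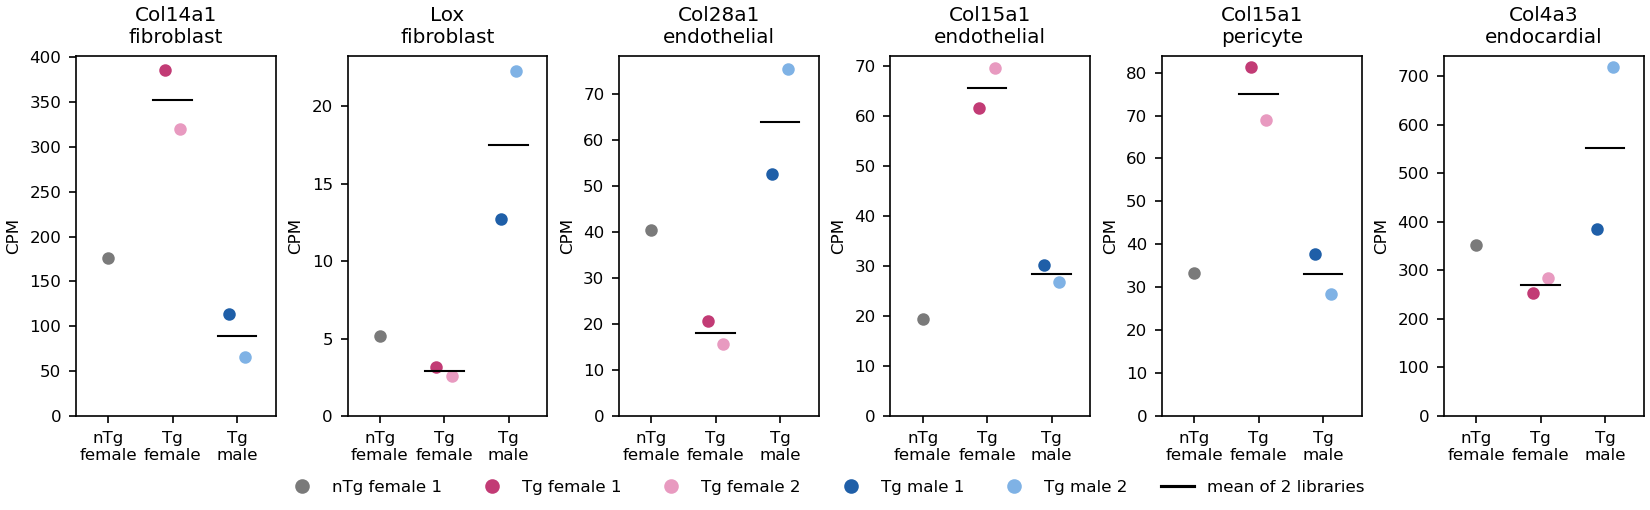
Level (CPM, linear axes from 0) in each library by label and sex of Col14a1 and Lox in fibroblasts, Col28a1 and Col15a1 in endothelial nuclei, Col15a1 in pericytes and Col4a3 in endocardial nuclei; lines are means of 2 libraries. The first 3 panels passed the edgeR test and the others did not; the library labelled nTg female 1 lies between the sexes for Col14a1, Lox and Col28a1.

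No other chain passed edgeR's test in the 8 types. In the other 6 types 0 chains were called, where 0.0266% of genes were in cardiomyocytes, 0.227% in endocardial nuclei, 0.27% in lymphatic endothelium, 0.0725% in macrophages, 0.156% in pericytes and 0.14% in smooth muscle. At an unadjusted p under 0.05 edgeR gave 9 of 35 chains in fibroblasts (1484 of 15231 genes), 12 of 28 in endothelial nuclei (1183 of 13018), 6 of 26 in cardiomyocytes (1057 of 15015) and 7 of 21 in endocardial nuclei (708 of 9692). It gave 2 of 7 in lymphatic endothelium (457 of 7033 genes), 2 of 12 in macrophages (695 of 11035), 5 of 21 chains for pericytes (687 of 10263) and 1 of 12 for smooth muscle (235 of 4998). DESeq2 called 3 of 35 chains in fibroblasts (Col14a1, Col27a1 and Col6a6, beside 236 of 15231 genes) and 3 of 28 in endothelial nuclei (Col28a1, Col15a1 and Col3a1, beside 104 of 13018). In cardiomyocytes DESeq2 called Col3a1 (beside 109 of 15015 genes), and in the other 5 types it called 0 chains. Cardiomyocyte Col3a1 was 9.97 and 20.99 CPM in the female and 4.73 and 3.64 in the male libraries. As a percent of their fibroblast level, the summed fibroblast markers in cardiomyocytes were also highest in Tg female 2 (8.16%). Their CPM was not: all 12 listed markers summed to 1001 CPM there and to 1310 in Tg female 1. Taken marker by marker, the median was 3.99% in Tg female 2 and 1.13% in Tg female 1. The part of fibroblast RNA in cardiomyocyte Col3a1 was not tested. In endothelial nuclei Col15a1 was 61.69 and 69.54 CPM in the female and 30.1 and 26.75 in the male libraries (log2 1.13, edgeR adjusted p 0.0850), with the library labelled nTg female 1 below both groups at 19.3. In pericytes it was 81.28 and 68.94 against 37.62 and 28.39 (log2 1.19, edgeR adjusted p 0.179). There the library labelled nTg female 1 stood at 33.3 CPM, between the male libraries. In both types the Tg-labelled female libraries lay above the male ones and nTg female 1 did not, and the values come from the same libraries. In fibroblasts Col27a1 had a log2 difference of 0.82 (edgeR adjusted p 0.153) and Col6a6 of −1.13 (0.214), and both were called by DESeq2, without the filter on low counts and with the replicate block. Endocardial Col4a3 had one of −1.10 (edgeR adjusted p 0.264), with Tg male 2 at 719.3 CPM and the other libraries at 386.3 or less. For the main fibrillar chains in fibroblasts the sexes overlapped for Col1a2 and Col3a1 and did not for Col1a1. Col1a1, Col1a2 and Col3a1 had log2 differences of 0.27 (SE 0.20), −0.01 (SE 0.21) and 0.18 (SE 0.25), with edgeR adjusted p of 0.777, 0.993 and 0.906.

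Female and male libraries did not overlap for 19 of 35 chains in fibroblasts (12 higher and 7 lower in female), where 41.7% of genes did not. In endothelial nuclei they did not overlap for 19 of 28 (15 higher and 4 lower), against 41% of genes. In the other types this held for 11 of 26 chains in cardiomyocytes (36.2% of genes), 11 of 21 in endocardial nuclei (36.4%), 3 of 7 in lymphatic endothelium (35.1%), 5 of 12 in macrophages (36.3%). Pericytes gave 11 of 21 chains (35.1%) and smooth muscle 3 of 12 (33.3%). The endothelial chains that were higher included Col1a1 and Col3a1, led by Tg female 2 at 30.01 and 84.8 CPM. Fibroblast markers summed in that library's endothelial nuclei to 10.0% of their fibroblast level, against 2.47% to 2.57% in the other 4, and their part in these differences was not tested. In macrophages, 16 of 19 chains were at least 2-fold higher in Tg female 2 than on average in the other 4, with no overlap, and so were 1225 of 10965 genes. A chain or gene was counted when it had 10 CPM in that library or on average in the other 4. Some chains thus entered only through their level in Tg female 2, and for each other library 13 to 15 chains were counted.

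The library labelled nTg female 1 has no replicate, so its differences are given without a test, and since Ccna2 went against its label, no difference can be assigned to the transgene. In fibroblasts 0 of 26 chains stood 2-fold or more from the average of the 4 Tg-labelled libraries while also lying beyond their lowest or highest value, where 0.171% of genes lay higher and 0.486% lower. Over the 8 types 16 such differences were found. Of these, 5 were in smooth muscle (of 22 chains) and 4 in lymphatic endothelium (of 17), where few nuclei were counted. Each other library, set against the remaining 4 by the same rule, gave such differences too. In smooth muscle Tg female 1 had 8 of 25 chains higher and 1 lower (843 and 445 of 10379 genes). Tg female 2 had 2 and 3 of 23 (1500 and 1203 of 10886 genes). For Tg male 1 these were 1 and 4 of 23 (800 and 858 of 10510 genes), and for Tg male 2 they were 2 and 4 of 23 (761 and 1009 of 10329). In the library labelled nTg female 1 endothelial Col15a1 was lower, at 19.3 CPM (exact Poisson interval 14.8 to 24.8, counting error only) against 47.0 ± 21.8 (SD, n = 4). Endothelial genes lower by this rule were 0.894%. Smooth muscle Col8a1 was higher, at 206 CPM (160 to 261) against 82.1 ± 29.9, where 5.74% of genes were higher. Endothelial Col4a3 (4.11 CPM) and Col14a1 (4.75 CPM) were lower, from 13 and 15 UMIs. In smooth muscle Col4a4 (10 UMIs) and Col16a1 (11) were also higher and Col14a1 (5) and Col19a1 (10) lower, where 8.65% of genes were lower. In lymphatic endothelium Col6a1, Col8a1 and Col14a1 were lower from 1 or 2 UMIs, where 6.12% of genes were, and Col15a1 higher from 6, where 5.04% were. In macrophages Col1a2 (11 UMIs), Col4a1 (39) and Col4a4 (5) were lower, where 3.27% of genes were. In pericytes Col10a1 (4 UMIs) was lower, where 2.52% were, and its interval of 1.13 to 10.6 CPM reached into the Tg-labelled range (8.21 to 13.7). Without Tg female 2, whose macrophages held 16.5% of the fibroblast marker level, Col1a2 and Col4a1 in macrophages, Col14a1 in endothelial nuclei and Col6a1 in lymphatic endothelium no longer passed. Without Tg female 1 Col14a1 and Col16a1 in smooth muscle did not, without Tg male 1 Col16a1 there did not, and without Tg male 2 Col10a1 in pericytes and Col19a1 in smooth muscle did not. No chain passed in the other directions or types, where the share of genes was 0.283% higher and 0.646% lower in cardiomyocytes, 1.98% higher and 3.43% lower in endocardial nuclei, 0.258% higher in endothelial nuclei, 0.876% higher in macrophages and 1.49% higher in pericytes.

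A list of 50 genes that make, modify, bind or sense collagen was read beside the chains. Of these, 26 had their highest median in fibroblasts, a count for which the share of all genes was not taken. In 15 the level was higher there in every library than in any library of the second type, a rule for which the share of all genes was not taken either. By the stricter rule against all 7 other types, it was 4.2% of the 10194 genes with 10 CPM or more in fibroblasts. These 15 included Pcolce2, which helps trim the propeptide (246 CPM in fibroblasts, 20.5 in the second type), Adamts2, which cuts the amino propeptide (243 CPM), the cross-linking enzyme Loxl1 (154 CPM against 42.7 in smooth muscle) and the collagen receptor Ddr2 (359 CPM). Dcn, decorin, stood at 3120 CPM. Dcn and Lum, both among the 15, are also markers that the fibroblast class was named from. Other genes were shared with pericytes or led by them: the prolyl hydroxylase P4ha1 had 256 CPM in pericytes and 218 in fibroblasts, and Sparc, a collagen-binding protein, had 804 and 506. The glycosyltransferase Colgalt2 (187 CPM) and Loxl2 (62 CPM) were highest in fibroblasts but overlapped the second type. The integrin subunit Itgb1 stood at 411 CPM in fibroblasts and was highest in smooth muscle, at 758.

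Lox, the lysyl oxidase that starts cross-linking, was the 1 gene of this list called by sex, of 48 tested in fibroblasts, where 0.453% of 15231 genes were called. Lox stood at 3.19 and 2.57 CPM in the female and at 12.7 and 22.3 in the male libraries, with 5.15 in the library labelled nTg female 1. This is a low level: its fibroblast median of 5.15 CPM lies under the 10 CPM used for the chains. The difference was −2.66 on the log2 scale (SE 0.36, edgeR adjusted p 0.0331), lower in 2 of 2 female libraries. The subclusters divide these same nuclei. In the male libraries Lox was 17.5 and 27.8 CPM in subcluster 0, 20.3 and 42.7 in subcluster 1, and 3.23 and 8.13 in subcluster 3. In subcluster 2 it was 9.28 and 12.9 CPM in the male and 4.12 and 4.62 in the female libraries, and the library labelled nTg female 1, at 9.34, overlapped the male ones.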

How the data were processed

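RNA of single nuclei from adult mouse hearts was counted with Cell Ranger 7.0.0, per the file headers, on mm10, per the submitters' processing notes; the deposited values are raw UMI counts per gene and nucleus. The 5 matrices with as many columns as barcodes were used; 3 others, each carrying an nTg label (male 1, male 2 and female 2), repeated a Tg matrix value for value and were left out. Nuclei with at least 200 genes and at most 5% mitochondrial UMIs were kept, and doublets were removed with Scrublet in scanpy 1.11.5 (7.63% to 11.4% per library; Tg female 2 took its threshold from the other libraries, since its own call marked 0%). Clusters (2000 genes without collagens, 30 components, 15 neighbours, resolution 1, or 0.5 within fibroblasts) were named from marker lists when at least 3 markers were raised. Counts were summed per library and type.

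Sex was tested across all genes with edgeR 4.0.16 (filterByExpr, TMM, quasi-likelihood, BH, threshold 0.05) and DESeq2 1.42.0 as an alternative, in R 4.3.3. On simulated fibroblast sums of 15231 genes, 36 of 70 genes changed 2-fold were called (51.4%). Of those changed 4-fold 68 of 69 were called (98.6%) and of those changed 8-fold 61 of 61 (100%), with 25 false calls. Poisson intervals are at 95%. Chains were named with values when they reached 10 CPM in a type or passed a comparison; of the 50 pathway genes, those called and the 2 highest in each group. The members and lists were chosen with earlier results of these data known. The alternatives covered clustering, filters, scaling, covariates and single libraries.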

Additional observations from a re-analysis of the deposited data

How the results depend on the processing

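The 12 chains apart in fibroblasts numbered 12 or 13 under every alternative run. The count apart among fibroblast subclusters (1) was 4 at resolution 0.3 (Col26a1, Col4a6, Col5a3 and Col6a3, without Col4a3), 3 with collagens kept (Col4a3, Col4a4 and Col4a5), and 1 to 3 when each library was left out: 2 without nTg female 1, Tg female 1 or Tg female 2, and 3 without Tg male 2. The cause was not tested.

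The 2 chains called by sex became 7 with DESeq2, 1 without scaling factors, 26 with no filter on low counts and 0 with 5 libraries and no genotype covariate (edgeR, where 6 of 35 fibroblast and 6 of 28 endothelial chains had an unadjusted p under 0.05, as had 1120 of 15270 and 802 of 13197 genes). Leaving out each library gave 5 to 32 (32 without Tg female 1, 11 without Tg female 2, 5 without either male library), the lone library of a sex being assumed to vary like the others. Without Tg female 1, where Tg female 2 with its raised fibroblast markers (16.5% in macrophages, 10% in endothelial nuclei) is the only female library, 13 of the 32 calls were in macrophages, beside 599 genes higher and 371 lower, and 10 in endothelial nuclei. The all-gene count moved likewise, from 69 in fibroblasts to 236 with DESeq2, 27 without scaling factors, 698 with no filter, 16 with no covariate and 223 to 809 without 1 library. In endothelial nuclei it moved from 17 to 104, 9, 385, 6 and 66 to 555. The cause was not tested. Col14a1 kept its direction and its call except with no covariate, and Col28a1 except there and without scaling factors.

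With the replicate number as a block, 10 chains, 404 fibroblast genes and 259 endothelial genes were called. Same-numbered libraries deviated together with a correlation of 0.0769 in fibroblasts and 0.144 in endothelial nuclei, and with only 2 pairs the libraries share no more than a number, so the pairing is not used.

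The 16 differences of the library labelled nTg female 1 became 31 against the 2 libraries labelled Tg female, while those of all genes rose from 4329 to 7023. Depth limits low chains: in smooth muscle and lymphatic endothelium these differences rest on 1 to 11 UMIs except Col8a1 in smooth muscle (67), and in endothelial nuclei Col4a3 and Col14a1 rest on 13 and 15. In macrophages Col1a2 and Col4a4 rest on 11 and 5 UMIs, and in pericytes Col10a1 rests on 4.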

Other observations

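Cell groups with under 50 nuclei in a library were compared with nothing, but their collagen levels filled gaps left by the 8 types. In Schwann nuclei, the glia of peripheral nerves (181 nuclei, 23 to 51 per library), collagen took a median of 0.565% of UMIs. Col5a3 had a median of 534.5 CPM there (357.6 to 576.7 over 5 libraries), Col16a1 368.5 (331 to 481.4), Col18a1 307.6 (245.6 to 484.1) and Col28a1 89.06 (64.07 to 213.9, from 55 UMIs). Mesothelial nuclei, from the outer lining of the heart, numbered 105 (3 to 48 per library). In them Col3a1 stood at 1795 CPM (966.2 to 2474) and Col4a4 at 733 (291.9 to 774).

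A cluster of 420 nuclei led by Cadps stayed unnamed, with 3 of 12 fibroblast markers raised. Collagen took 0.532% of its UMIs. It held the highest medians of chains that stayed under 10 CPM in the 8 types: Col11a1 at 96.27 CPM (26.94 to 311.7), Col12a1 at 61.26 (32.33 to 100.5), Col11a2 at 26.94 (10.05 to 49.31) and Col8a2 at 20.11 (10.78 to 26.11). Col4a5 and Col4a6 stood at 433.2 CPM (252.4 to 492.7) and 441.9 CPM (284.3 to 542.6), and Col5a2 at 894.9 CPM (719.3 to 927.7). Col6a4 had its highest median in B lymphocytes, 32.13 CPM (0 to 295.9), from 9 UMIs.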
